A study of Mus musculus with 12 samples.

Results

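Cytochrome P450 genes outside the Cyp4a subfamily were followed in the kidney cortex of mice with 1 obstructed ureter. They were chosen by symbol: every gene named Cyp with a family number, a subfamily letter and a gene number was taken, the Cyp4a genes and the vitamin D enzymes Cyp27b1 and Cyp24a1 were left out, and at least 1 FPKM in at least 3 of 12 libraries was required. FPKM is the number of sequenced fragments scaled to transcript length and library depth. The pattern matched 90 symbols, of which 29 passed the level filter, 40 were above 0 somewhere without passing and 21 were listed at 0 in all 12 libraries. Of the 29 members, 22 were at or above 1 FPKM in all 12 libraries.

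The study asked how the loss of Acot12, an acyl-CoA thioesterase that hydrolyses acetyl-CoA, bears on kidney fibrosis after unilateral ureteral obstruction (UUO), in which 1 ureter is tied and the other kidney stays in place. Male C57BL/6 mice aged 6 to 7 weeks were operated on, and at day 7 cortex was taken from both kidneys, the obstructed one (UUO) and the one on the other side (contralateral, CL). The 4 groups, of 3 libraries each, were Acot12+/+ CL, Acot12+/+ UUO, Acot12-/- CL and Acot12-/- UUO. The Acot12-/- mice carried in the whole body a mutant Acot12 allele made with an RNA-guided nuclease. The CL kidneys came from operated mice, and kidneys of unoperated mice were not analysed here.

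Cytochrome P450 enzymes are heme proteins that insert an oxygen atom into lipids, steroids and foreign compounds. Most sit in the endoplasmic reticulum and take electrons from P450 oxidoreductase (Por), with cytochrome b5 as a second donor, whereas the mitochondrial members are fed by ferredoxin. In the kidney they are most abundant in the proximal tubule, where they turn arachidonic acid into epoxides and hydroxy acids, and several mouse genes of the Cyp2 family are known for levels that depend on sex hormones and growth hormone.

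In the 12 libraries, Acot12 itself was listed at 52.7 to 78.1 FPKM (CL) and 9.98 to 21.2 FPKM (UUO) in Acot12+/+ mice and at 6.80 to 9.15 FPKM (CL) and 1.80 to 3.86 FPKM (UUO) in Acot12-/- mice, lower in every Acot12-/- library than in every Acot12+/+ library of the same kidney. The step size of the values gave depths of about 12400000 to 16300000 fragments in CL and 18500000 to 22800000 fragments in UUO libraries, so that 1 fragment on a transcript with 1 kilobase of usable length was worth 0.0438 to 0.0807 FPKM. All 10 proximal tubule markers passed the filter on low values, and the 5 adrenal cortex markers summed to at most 1.30 FPKM. The 5 liver markers summed to 143 to 275 FPKM in CL and 10.6 to 42.0 FPKM in UUO libraries; Ttr alone was 130 to 270 FPKM in CL, Fgb reached 22.2 FPKM in a UUO library, and the defining liver gene Alb was at most 3.61 FPKM. The liver list thus moved with the kidney, and its part in the P450 results was not tested. Acot12-/- CL replicate 2 lay farthest from its group: over all genes tested, its root mean square log2 distance from the mean of its group's other libraries was 0.725, against 0.250 to 0.544 in the other 11 libraries. Over the members alone, Acot12-/- UUO replicate 2 lay farthest, at 1.11 against 0.277 to 0.770.

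Renal P450 expression was concentrated in a few genes. Cyp4b1, which hydroxylates fatty acids and activates furan toxins, had the highest mean in both CL groups, 1031 ± 170 FPKM in Acot12+/+ and 1062 ± 68.3 in Acot12-/- (SD, n = 3), followed by Cyp2e1, the ethanol and solvent oxidase, at 633 ± 79.3 and 986 ± 279. Cyp2j5, an arachidonic acid epoxygenase of the kidney, came next at 524 ± 91.2 and 644 ± 156, and its libraries overlapped those of Cyp2e1 in both genotypes, as those of Cyp2e1 did those of Cyp4b1 in Acot12-/- CL. In the UUO groups the order of these 3 means was Cyp2e1, Cyp2j5 and Cyp4b1, with overlapping libraries. Together they held 54.3% to 75.3% of the summed FPKM of the 29 members in every library. At the other end, Cyp4f14, Cyp2u1, Cyp1a1 and Cyp2r1 had means over the 12 libraries of 0.498 to 1.31 FPKM.

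The genes nearest to the level filter show what it kept. Cyp4f14 passed in 3 libraries and Cyp2u1 in 5, all of them CL, and Cyp4f18 passed in 6, all of them UUO, so that these 3 members entered through the kidney in which they were high and their direction between kidneys was set by the filter. Cyp1a1 passed in 6 and Cyp2d12 in 7 libraries. Those of Cyp2d12 were 3 in each CL group, 0 in Acot12+/+ UUO and 1 in Acot12-/- UUO. Just outside, the retinoic acid hydroxylase Cyp26b1 reached 3.16 FPKM in Acot12+/+ CL replicate 3 and 0.0950 to 0.653 elsewhere, and Cyp2f2 reached 1.84 FPKM in 1 library.

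**Figure D1:**
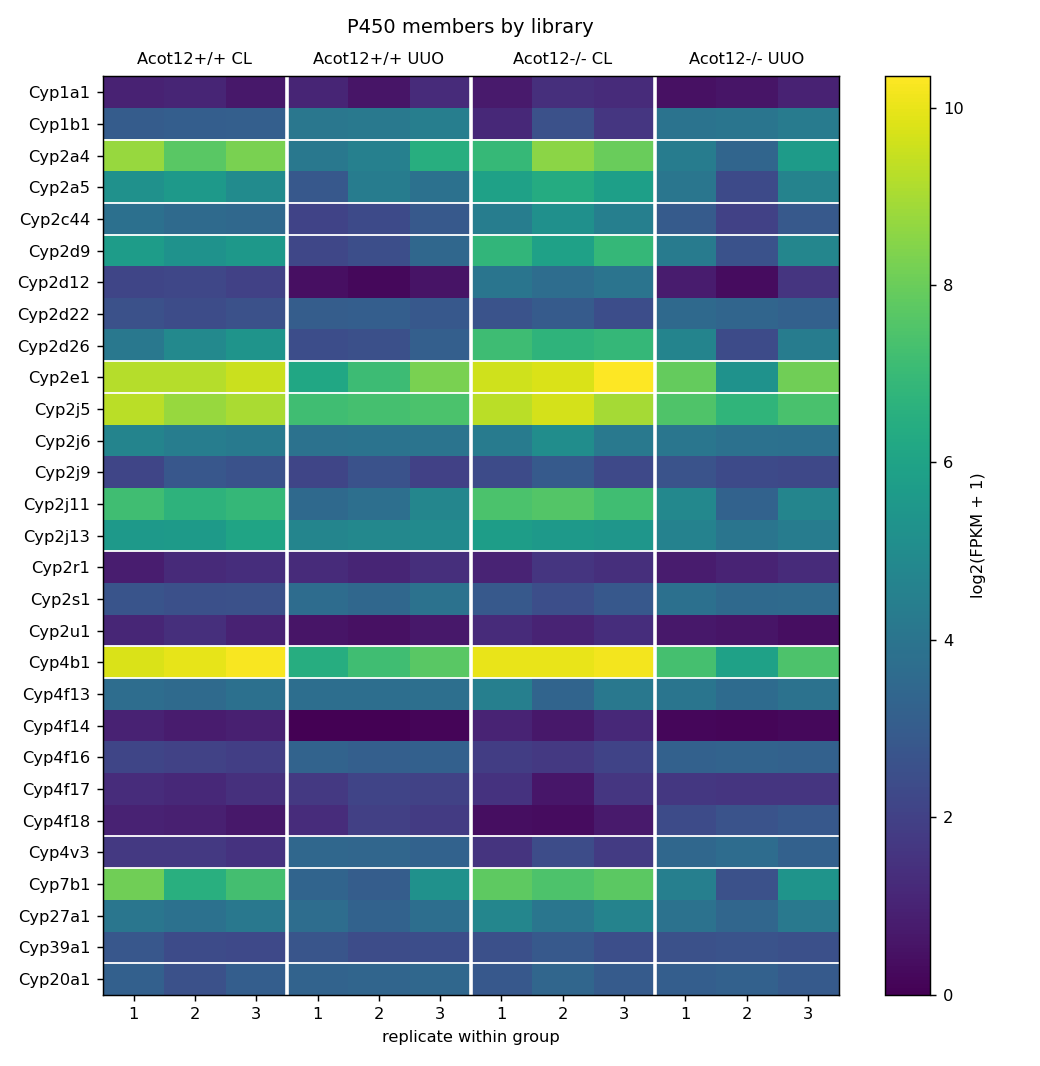
Heat map of the 29 members (rows, white lines between subfamilies) in the 12 libraries (columns, by group and replicate), coloured by log2(FPKM + 1). Cyp4b1, Cyp2e1 and Cyp2j5 are the brightest rows, and the rows of Cyp2a4, Cyp7b1, Cyp2j11, Cyp2d9 and Cyp2d26 darken from CL to UUO in both genotypes.

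Obstruction lowered most of the abundant P450 genes. A smaller group of scarcer ones rose, at a share near or below that of all genes tested. In Acot12+/+ mice 14 members fell and 7 rose between CL and UUO kidneys, and in Acot12-/- mice 16 fell and 6 rose. Calls here are from limma on log2(FPKM + 1), with p-values adjusted over the 13271 genes that passed the same level filter and a threshold of 0.05 on the adjusted p. Obstruction moved much of the transcriptome: 47.3% of all genes tested were called in Acot12+/+ (23.8% lower, 23.5% higher) and 53.5% in Acot12-/- (27.0% lower, 26.4% higher). By libraries alone, 55.2% of members were lower in every UUO than in every CL library of Acot12+/+ (35.7% of all genes) and 27.6% higher (35.4%), and in Acot12-/- 51.7% were lower (27.6%) and 20.7% higher (27.7%). The members' called shares were 48.3% lower and 24.1% higher in Acot12+/+, and 55.2% lower and 20.7% higher in Acot12-/-. Their median log2 fold change was -0.50 and -0.65, beside 0.01 and -0.01 over all genes tested. The Acot12-/- counts were 16 lower and 6 higher without CL replicate 2, and 14 lower and 6 higher without UUO replicate 2. The called counts include Cyp4f14, Cyp2u1 and Cyp4f18, whose direction the filter set. They also include Cyp2d12, which in Acot12+/+ passed in CL libraries alone. It is among the 26 members below through 1 Acot12-/- UUO library. Over the 26 members with at least 1 FPKM in a library of each kidney, a count added after seeing the data, 12 fell and 6 rose in Acot12+/+ and 14 fell and 5 rose in Acot12-/-. That is 46.2% and 53.8% lower and 23.1% and 19.2% higher, beside 24.2% and 27.7% lower and 21.0% and 23.7% higher among the 12565 genes that met the same condition. In whole cortex, fewer cells of a type and less RNA per cell cannot be told apart.

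The calls depended on how libraries are scaled. The summed FPKM of whole libraries was lower in UUO than in CL kidneys, and scaling every library to the same total moved the median log2 fold change of all genes to 0.65 in Acot12+/+ and 0.47 in Acot12-/-. The members' medians were then 0.20 and -0.24, and the calls were 10 lower and 11 higher in Acot12+/+ and 14 lower and 7 higher in Acot12-/-. Under this scaling 8435 of the 13271 genes tested were called in Acot12+/+ and 7593 in Acot12-/-.

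Direction was largely shared between the genotypes, whose UUO and CL libraries are separate. The 14 members that fell in Acot12+/+ also fell in Acot12-/-, and 6 members, Cyp1b1, Cyp2d22, Cyp2s1, Cyp4f16, Cyp4f18 and Cyp4v3, rose in both, Cyp4f14, Cyp2u1 and Cyp4f18 among them with the limit given above. Cyp4f17 rose in Acot12+/+ alone by the threshold, and Cyp27a1 and Cyp2j6 passed it for a fall in Acot12-/- alone, while the test of the difference between genotypes did not call any of these 3. Cyp1a1, Cyp20a1, Cyp2j9, Cyp2r1, Cyp39a1 and Cyp4f13 were called in neither genotype.

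**Figure D2:**
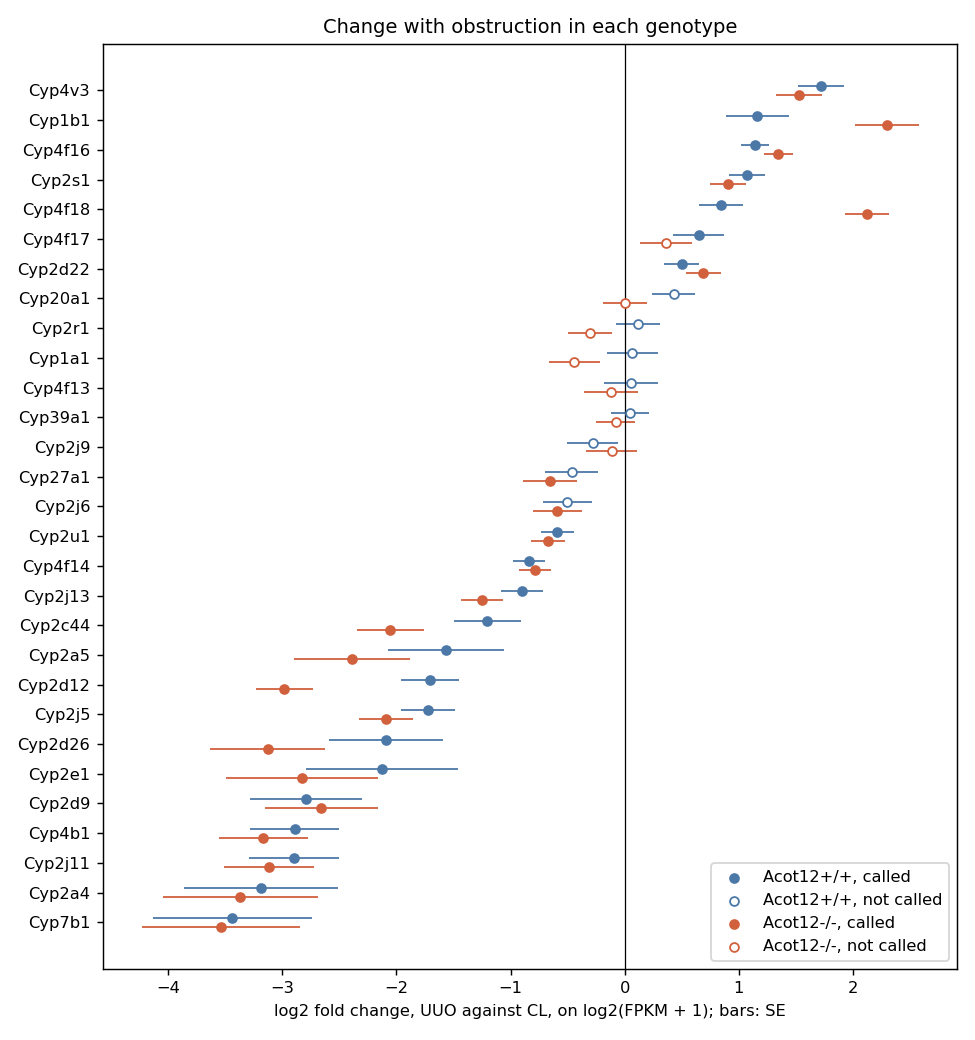
Log2 fold change between UUO and CL kidneys on log2(FPKM + 1) for each member in Acot12+/+ (blue) and Acot12-/- (orange), with bars of 1 SE; filled points passed an adjusted p of 0.05 in limma and open points did not. Cyp7b1 and Cyp2a4 lie farthest to the left in both genotypes, and Cyp1b1 and Cyp4f18 lie farther to the right in Acot12-/- than in Acot12+/+, a difference that did not pass the adjusted test.

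Cyp4b1 stood at 876, 1005 and 1212 FPKM in Acot12+/+ CL and at 85.7, 145 and 206 FPKM in Acot12+/+ UUO. In Acot12-/- mice it was 1026, 1020 and 1141 FPKM in CL and 155, 58.9 and 177 FPKM in UUO kidneys. No UUO library reached a CL library in either genotype, and the mean was 7.09-fold and 8.16-fold lower with obstruction (log2 fold change -2.89 ± 0.39 SE, adjusted p = 0.000128, and -3.16 ± 0.39, adjusted p = 4.31e-05, limma).

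Cyp2e1 was 586, 589 and 725 FPKM in Acot12+/+ CL and 71.2, 136 and 303 FPKM in Acot12+/+ UUO. In Acot12-/- it was 783, 871 and 1304 FPKM in CL and 236, 37.3 and 276 FPKM in UUO kidneys. The groups did not overlap, but the UUO libraries of each genotype differed among themselves by more than 4-fold. The fall was 3.72-fold in Acot12+/+ (adjusted p = 0.0206) and 5.38-fold in Acot12-/- (adjusted p = 0.00366), and the first call was lost without Acot12+/+ CL replicate 3 or without Acot12+/+ UUO replicate 1 or 2 (adjusted p 0.0551 to 0.0902, limma). In Acot12-/- the log2 fold change went from -2.82 to -1.91 without UUO replicate 2.

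The 5 Cyp2j genes lie within 1 stretch of chromosome 4 (GRCm38, chr4:96027534-96664154) and encode epoxygenases and hydroxylases of polyunsaturated fatty acids. Cyp2j11 fell the most, from 145, 102 and 118 FPKM in Acot12+/+ CL to 10.8, 12.7 and 26.1 FPKM in UUO (7.37-fold), and in Acot12-/- from 169, 189 and 144 to 27.8, 8.65 and 24.9 FPKM (8.18-fold). Cyp2j5 was 614, 431 and 529 FPKM in CL against 144, 154 and 171 FPKM in UUO kidneys of Acot12+/+ mice, and 620, 810 and 501 against 179, 107 and 166 FPKM in Acot12-/- mice. Its fall, of 3.35-fold and 4.27-fold, was less than that of Cyp2j11, and no UUO library of either gene reached a CL library of the same genotype. Cyp2j13 fell 1.91-fold in Acot12+/+ and 2.43-fold in Acot12-/- (adjusted p = 0.00188 and 0.000145), a call lost in Acot12+/+ when libraries were scaled to equal totals (log2 fold change -0.19, adjusted p = 0.455).

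Cyp2j6 and Cyp2j9 moved less. Cyp2j6 was 17.8 to 24.8 FPKM in Acot12+/+ CL and 14.04 to 14.7 FPKM in UUO, and 16.9 to 32.5 against 13.2 to 15.8 FPKM in Acot12-/-. Its fall passed the threshold in Acot12-/- (adjusted p = 0.0354, limma) and not in Acot12+/+ (adjusted p = 0.0728, or 0.0485 with the replicate number as a block). The Acot12-/- call was lost without CL replicate 2, UUO replicate 2 or UUO replicate 3 (adjusted p 0.0654 to 0.0950). It was also lost with equal totals (log2 fold change -0.07, adjusted p = 0.817). With only the compared groups fitted, Cyp2j6 was called in Acot12+/+ (adjusted p = 0.00894) and not in Acot12-/- (adjusted p = 0.115). With equal library totals the log2 fold change of Cyp2j6 turned to 0.20 in Acot12+/+ and that of Cyp2j9, which was not called, turned to 0.34 and 0.36. The Cyp2j share of the summed P450 FPKM was 17.6% to 27.9% in CL and 23.8% to 39.8% in UUO libraries.

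Cyp2a4, a testosterone hydroxylase, was at 435, 206 and 303 FPKM in Acot12+/+ CL and at 16.5, 22.1 and 89.6 FPKM in Acot12+/+ UUO. In Acot12-/- it was at 122, 379 and 251.1 FPKM in CL and at 19.5, 9.27 and 49.97 FPKM in UUO. The groups were separate in both genotypes, and the means differed 7.37-fold and 9.54-fold (log2 fold change -3.18 ± 0.68, adjusted p = 0.00242, and -3.37 ± 0.68, adjusted p = 0.00129, limma). Without UUO replicate 3, the highest of its group in each genotype, the log2 fold changes of Cyp2a4 were -3.91 and -3.97. Cyp2a5, a coumarin hydroxylase also on chromosome 7, fell 2.90-fold in Acot12+/+ (adjusted p = 0.0242) and 4.59-fold in Acot12-/- (adjusted p = 0.00191), where the log2 fold change went from -2.39 to -1.71 without UUO replicate 2. The Acot12+/+ call for Cyp2a5 was lost with equal library totals (log2 fold change -0.89) and without CL replicate 1, CL replicate 2 or UUO replicate 1 of that genotype (adjusted p 0.0573 to 0.106). The coding sequences of Cyp2a4 and Cyp2a5 are 98.5% identical, with an unbroken identical run of 216 bases, so that the split of reads between the pair is uncertain.

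Cyp2d9, Cyp2d12, Cyp2d22 and Cyp2d26 lie within chr15:82370527-82794294 (GRCm38). Cyp2d9, a testosterone hydroxylase of male mice, was 51.2, 38.3 and 44.7 FPKM in Acot12+/+ CL and 3.60, 4.63 and 9.91 FPKM in UUO, and 111, 60.2 and 118 against 18.9, 5.04 and 26.1 FPKM in Acot12-/-. Cyp2d26 was 16.7, 27.9 and 39.9 FPKM in Acot12+/+ CL and 4.39, 4.68 and 7.81 FPKM in UUO, and 138, 104 and 117 against 24.2, 4.10 and 19.1 FPKM in Acot12-/-. Both fell in both genotypes with no overlap (Cyp2d9 7.40-fold and 5.79-fold, Cyp2d26 5.01-fold and 7.58-fold, adjusted p at most 0.00497). Without Acot12-/- UUO replicate 2 the Acot12-/- log2 fold changes went from -2.66 to -2.01 for Cyp2d9 and from -3.13 to -2.41 for Cyp2d26.

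Cyp2d12 was at 3.43, 3.55 and 3.01 FPKM in Acot12+/+ CL and 0.345, 0.170 and 0.479 FPKM in UUO, and at 15.1, 12.0 and 14.9 against 0.743, 0.272 and 2.03 FPKM in Acot12-/-. Its means were 10.05-fold and 13.8-fold lower in UUO. In Acot12-/- the adjusted p was 3.61e-06 (limma). For Acot12+/+ the fall is a description, since Cyp2d12 passed the level filter there in CL libraries alone. Cyp2d22 went the other way, from 4.86, 4.27 and 4.86 to 7.31, 7.48 and 6.26 FPKM in Acot12+/+ (1.51-fold, adjusted p = 0.0180) and from 5.35, 6.76 and 4.46 to 10.7, 9.42 and 8.24 FPKM in Acot12-/- (1.71-fold, adjusted p = 0.00248). The 4 genes therefore split 3 to 1, although the Acot12+/+ call for Cyp2d22 was lost without CL replicate 2, UUO replicate 1 or UUO replicate 2 (adjusted p 0.0628 to 0.0676). Cyp2d9 and Cyp2d12 share 92.1% of their coding bases and an identical run of 158 bases, and reads of the pair may have been divided between them.

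Cyp2c44, an arachidonic acid epoxygenase listed in current annotation as Cyp2c23, was 13.2, 10.9 and 10.5 FPKM in Acot12+/+ CL and 3.27, 4.06 and 6.36 FPKM in UUO. In Acot12-/- it was 19.8, 35.2 and 21.3 FPKM in CL and 6.83, 3.00 and 6.49 FPKM in UUO. It fell in both genotypes without overlap, 2.52-fold (adjusted p = 0.00563) and 4.68-fold (adjusted p = 0.000123), and the first call was lost with equal library totals (adjusted p = 0.0879).

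Of the 3 sterol P450 genes, Cyp7b1, the oxysterol hydroxylase of the acidic bile acid path, was among the members that fell the most in both genotypes. It stood at 277, 91.3 and 153 FPKM in Acot12+/+ CL and 8.98, 7.27 and 36.9 FPKM in UUO, and at 222, 173 and 215.1 against 21.1, 4.92 and 40.2 FPKM in Acot12-/-. The groups were separate, with means 9.82-fold and 9.23-fold lower in UUO (log2 fold change -3.44 ± 0.69, adjusted p = 0.00178, and -3.54 ± 0.69, adjusted p = 0.0011, limma). The log2 fold change was -4.12 in Acot12+/+ without UUO replicate 3, and in Acot12-/- it was -2.75 without UUO replicate 2 and -4.15 without UUO replicate 3. Cyp2d12 fell by more in the ratio of means, and the order of Cyp7b1 and Cyp2a4 in Acot12-/- turned without UUO replicate 2 (-2.75 and -2.82). Cyp27a1, the mitochondrial sterol hydroxylase, was 13.6 to 16.7 FPKM in Acot12+/+ CL and 8.49 to 12.4 in UUO (log2 fold change -0.47, adjusted p = 0.121), and fell from 15.6 to 25.8 to 9.53 to 17.1 FPKM in Acot12-/- (log2 fold change -0.65, adjusted p = 0.0334). That call was lost without Acot12-/- CL replicate 1 or 3 or Acot12-/- UUO replicate 1 or 2 (adjusted p 0.0596 to 0.150). With equal totals it was lost too (log2 fold change -0.14, adjusted p = 0.626, limma), and the Acot12+/+ value turned to 0.22. With only the compared groups fitted, Cyp27a1 was called in Acot12+/+ (adjusted p = 0.0291) and not in Acot12-/- (adjusted p = 0.0972). Cyp39a1, which hydroxylates 24-hydroxycholesterol, stayed between 3.87 and 6.49 FPKM in all 12 libraries.

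The Cyp4f genes, whose products hydroxylate leukotrienes and long fatty acids, were split. Cyp4f16 rose from 3.47, 3.18 and 2.80 to 8.73, 7.77 and 7.91 FPKM in Acot12+/+ (2.58-fold, adjusted p = 4.20e-05) and from 2.69, 2.31 and 3.24 to 8.36, 8.72 and 8.34 FPKM in Acot12-/- (3.08-fold, adjusted p = 7.89e-06). Cyp4f18, a leukotriene B4 hydroxylase known from neutrophils and other myeloid cells, was 0.964, 0.881 and 0.580 FPKM in CL against 1.49, 2.93 and 2.45 FPKM in UUO kidneys of Acot12+/+ mice, and 0.318, 0.278 and 0.670 against 4.20, 5.19 and 6.17 FPKM in Acot12-/- mice. The UUO libraries of both genes lay above the CL libraries of the same genotype, which for Cyp4f18 is a description, since it passed the level filter in UUO libraries alone. The 7 macrophage markers summed to 137 to 156 and 51.0 to 106 FPKM in the CL groups of Acot12+/+ and Acot12-/- and to 604 to 713 and 642 to 808 FPKM in their UUO groups, with 6 of 7 called higher in Acot12+/+ and 7 of 7 in Acot12-/-, and their part in the Cyp4f18 levels was not tested.

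Cyp4f14, chiefly a hepatic leukotriene hydroxylase, was 0.572 to 1.26 FPKM in the 6 CL libraries and 0 to 0.160 FPKM in the 6 UUO libraries, where it rests on few fragments; it passed the level filter in CL libraries alone, so no test between kidneys is given. Cyp4f17 was 1.48, 1.27 and 1.70 FPKM in Acot12+/+ CL and 2.27, 3.37 and 3.11 FPKM in UUO (adjusted p = 0.0326), and 1.83, 0.560 and 2.15 against 2.19, 2.04 and 2.04 FPKM in Acot12-/- (adjusted p = 0.197). The Acot12+/+ call was lost without any of the 3 CL libraries or without UUO replicate 2 or 3 (adjusted p 0.0509 to 0.107), with a pseudocount of 0.1 (adjusted p = 0.0662) and without the level filter (adjusted p = 0.0507). Cyp4f13 was 9.04 to 20.9 FPKM throughout and was not called.

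Outside the Cyp4f subfamily, Cyp4v3, the mouse counterpart of the gene mutated in Bietti crystalline dystrophy and a fatty acid hydroxylase, rose from 2.32, 2.27 and 1.86 to 10.1, 9.56 and 8.43 FPKM in Acot12+/+ (4.35-fold, adjusted p = 5.64e-05) and from 1.95, 4.33 and 2.44 to 10.01, 11.6 and 8.38 FPKM in Acot12-/- (3.44-fold, adjusted p = 6.78e-05). Cyp2s1, an epithelial P450 that acts on retinoids and eicosanoids, rose from 5.53, 4.80 and 4.91 to 11.7, 10.1 and 13.9 FPKM (2.34-fold, adjusted p = 0.000226) and from 6.51, 4.61 and 6.20 to 13.2, 10.7 and 10.9 FPKM (2.01-fold, adjusted p = 0.000506). Every UUO library lay above every CL library of its genotype for both genes. Cyp2u1, a fatty acid hydroxylase, was 0.987 to 1.65 FPKM in Acot12+/+ CL and 0.382 to 0.596 FPKM in UUO, and 1.02 to 1.58 against 0.321 to 0.603 FPKM in Acot12-/-, given without a test because it too passed in CL libraries alone.

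Among the Cyp1 genes, which the aryl hydrocarbon receptor induces, Cyp1b1 rose from 7.06, 7.49 and 7.75 to 16.2, 16.9 and 20.8 FPKM in Acot12+/+ (2.42-fold, adjusted p = 0.00488) and from 1.27, 4.97 and 2.09 to 14.3, 15.3 and 18.9 FPKM in Acot12-/- (5.82-fold, adjusted p = 3.81e-05). The UUO levels of both genotypes overlapped, and the larger fold in Acot12-/- went with lower CL values. Cyp1b1 is found mainly in mesenchymal cells, and the 7 fibroblast markers summed to 127 to 160 and 36.0 to 98.7 FPKM in the CL groups and to 304 to 454 and 306 to 450 FPKM in the UUO groups, with 5 of 7 called higher in Acot12+/+ and 7 of 7 in Acot12-/-; their part was not tested. Cyp1a1 was 0.398 to 1.60 FPKM in the 12 libraries and was not called.

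The vitamin D hydroxylase Cyp2r1 (0.709 to 2.00 FPKM) and the orphan P450 Cyp20a1 (4.92 to 9.94 FPKM) were not called. Cyp20a1 was higher in every Acot12+/+ UUO library than in every Acot12+/+ CL library, at 8.89, 9.29 and 9.94 against 7.93, 4.92 and 7.65 FPKM (adjusted p = 0.0810, or 0.0486 with the replicate number as a block). With equal totals Cyp20a1, Cyp2r1, Cyp39a1 and Cyp4f13 were called higher in Acot12+/+ (adjusted p 0.00163 to 0.0256).

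Summed over the 29 members, P450 FPKM was 3071 ± 337 in CL and 725 ± 271 in UUO kidneys of Acot12+/+ mice, and 3785 ± 305 and 728 ± 311 in those of Acot12-/- mice (SD, n = 3). The CL mean was 4.24 times the UUO mean in Acot12+/+ and 5.20 times in Acot12-/-. As a share of the whole library's FPKM, the members held 0.275% to 0.466% in CL and 0.0708% to 0.183% in UUO libraries. Acot12+/+ UUO replicate 3 was the highest of its group for 13 of the 14 genes that fell in both genotypes. Acot12-/- UUO replicate 2 was the lowest of its group likewise for 13 of these 14, and its summed P450 FPKM of 374 was the lowest of all 12 libraries. The 10 proximal tubule markers summed to 904, 243 and 740 FPKM in Acot12-/- UUO replicates 1, 2 and 3, and to 387, 423 and 677 FPKM in Acot12+/+ UUO. In the CL groups they summed to 1673 to 2447 FPKM in Acot12+/+ and 2929 to 4395 FPKM in Acot12-/-. The marker sums moved with the P450 sums between kidneys, and the same library was lowest for both in each UUO group. Within groups the order did not always match. Acot12-/- CL replicate 1 had the highest marker sum of its group (4395) and the lowest P450 sum (3442). In Acot12+/+ CL, replicate 1 was lowest for the markers and replicate 2 for P450 (2689). In Acot12-/- UUO, replicate 1 was highest for the markers and replicate 3 for P450 (956). The markers' part in the fall was not tested. Of these 10 markers, 9 fell in Acot12+/+ and 10 in Acot12-/-, with median log2 fold changes of -1.92 and -2.52. Over all 47 markers tested, from 9 lists of cell types, cell states and the liver, 20 rose and 20 fell in Acot12+/+ and 26 rose and 16 fell in Acot12-/-. The 5 injured tubule markers rose in both, and between genotypes in CL kidneys 12 of the 47 were called, all lower in Acot12-/-, 4 of them endothelial and 3 from the macrophage list.

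**Figure D3:**
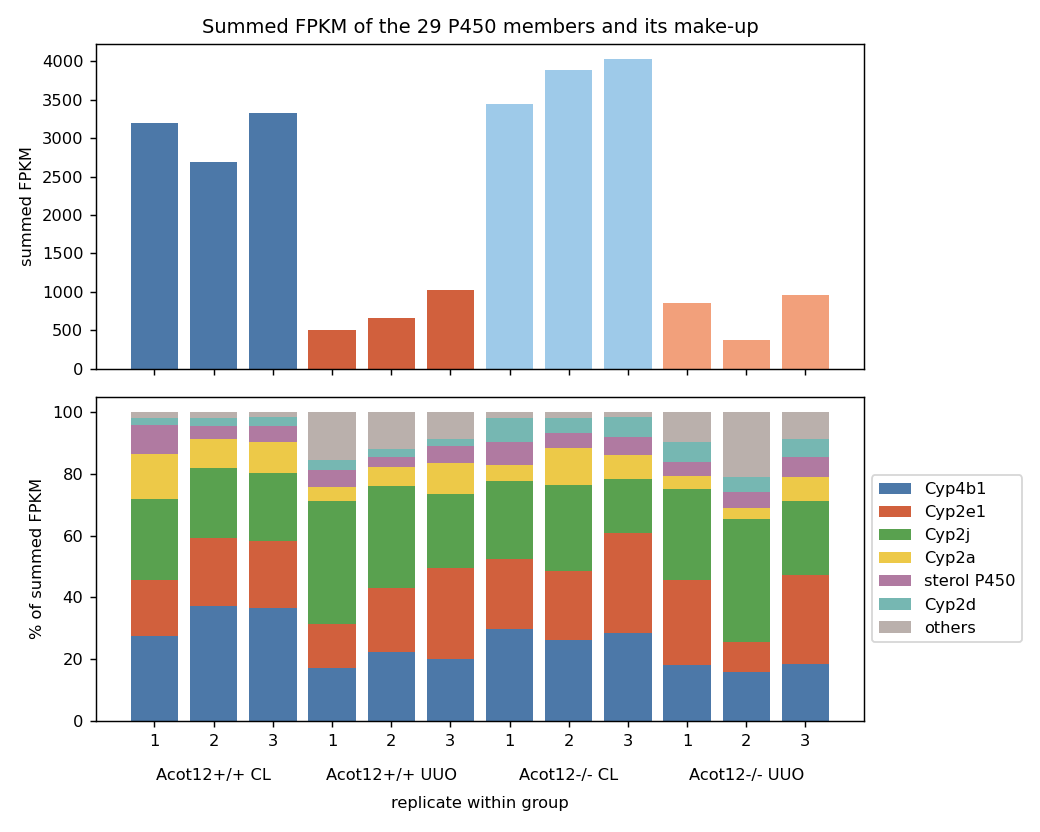
Summed FPKM of the 29 members in each library (upper bars, from 0) and the percentage of that sum held by each gene or subfamily (lower stacked bars, from 0). The 6 CL libraries sum to 2689 to 4025 FPKM and the 6 UUO libraries to 374 to 1025, and the Cyp4b1 share is 26.2% to 37.4% in CL and 15.7% to 22.2% in UUO.

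The start regions of these genes were compared with RefSeq promoter sequence (GRCm38.p6), which covers 22 of the 29 members. A TATA core, the letters TATAAA on either strand, began 25 to 35 bases before the start in 6 members (Cyp1a1, Cyp2a4, Cyp2a5, Cyp2d9, Cyp2d26 and Cyp2e1), against 2.35% of all promoters in the table. By direction, 5 of the 10 members with a promoter that fell in both genotypes had it there, against 0 of 5 that rose in both and 1 of 5 called in neither. These are descriptions of letters in a window, and binding was not measured. The 200 bases before the start, 5′ to 3′ on the gene's strand, are shown for the 5 fallen genes, because they share this placement, with TATAAA, the HNF1 half-site GTTAAT and the xenobiotic response core GCGTG in capitals in either orientation. They lie at chr7:26306992-26307191 (plus strand), chr7:26835139-26835338 (plus), chr15:82452177-82452376 (plus), chr15:82794246-82794445 (minus) and chr7:140763619-140763818 (plus).
Cyp2a4: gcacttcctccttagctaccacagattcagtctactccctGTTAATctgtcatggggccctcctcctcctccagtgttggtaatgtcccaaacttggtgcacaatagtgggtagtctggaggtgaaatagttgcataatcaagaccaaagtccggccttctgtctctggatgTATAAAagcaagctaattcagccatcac
Cyp2a5: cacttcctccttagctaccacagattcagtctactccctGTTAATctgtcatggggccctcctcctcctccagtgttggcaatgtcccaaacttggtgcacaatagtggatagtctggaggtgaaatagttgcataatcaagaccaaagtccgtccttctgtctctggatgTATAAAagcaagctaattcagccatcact
Cyp2d9: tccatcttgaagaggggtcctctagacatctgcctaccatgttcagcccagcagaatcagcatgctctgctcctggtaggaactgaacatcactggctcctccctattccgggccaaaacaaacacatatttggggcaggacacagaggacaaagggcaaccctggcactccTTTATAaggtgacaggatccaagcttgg
Cyp2d26: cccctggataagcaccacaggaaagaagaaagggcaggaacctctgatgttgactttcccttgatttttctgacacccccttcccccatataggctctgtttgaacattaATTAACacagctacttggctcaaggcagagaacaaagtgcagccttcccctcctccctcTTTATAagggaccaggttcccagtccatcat
Cyp2e1: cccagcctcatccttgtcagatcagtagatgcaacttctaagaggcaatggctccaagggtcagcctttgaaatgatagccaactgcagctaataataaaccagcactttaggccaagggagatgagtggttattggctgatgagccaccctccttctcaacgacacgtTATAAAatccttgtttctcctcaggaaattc

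The whole promoter windows of Cyp2a4 and Cyp2a5, which run on past the start, differ at 5 of 299 aligned bases. The pair is thus nearly as alike around the start as in the coding part. Over the whole promoter window, GTTAAT was in 3 of the 22 members, Cyp2a4, Cyp2a5 and Cyp2d26, against 7.20% of the 27025 promoters in the table, and the longer HNF4 element CAAAGTCCA was in 0 of 22, against 0.477%. GCGTG was in 9 of 22 members against 32.5% of all promoters, and CCAAT in 11 of 22 against 37.9%, and none of these motifs contains another. For contrast, the same stretch is shown for 3 genes that rose in both genotypes, at chr17:79715062-79715261 (minus), chr8:45333164-45333363 (minus) and chr7:25816526-25816725 (minus), with the same letters in capitals. None of the 3 holds TATAAA in it, and the first and second hold GCGTG, which Cyp2s1 lacks.
Cyp1b1: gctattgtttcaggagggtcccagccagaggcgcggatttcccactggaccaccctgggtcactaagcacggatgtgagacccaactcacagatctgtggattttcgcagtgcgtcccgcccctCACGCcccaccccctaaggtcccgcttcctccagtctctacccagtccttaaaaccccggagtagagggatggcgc
Cyp4v3: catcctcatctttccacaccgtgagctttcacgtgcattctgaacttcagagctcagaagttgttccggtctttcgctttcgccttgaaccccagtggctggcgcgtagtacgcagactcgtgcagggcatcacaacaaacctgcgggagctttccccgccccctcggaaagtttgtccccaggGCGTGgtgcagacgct
Cyp2s1: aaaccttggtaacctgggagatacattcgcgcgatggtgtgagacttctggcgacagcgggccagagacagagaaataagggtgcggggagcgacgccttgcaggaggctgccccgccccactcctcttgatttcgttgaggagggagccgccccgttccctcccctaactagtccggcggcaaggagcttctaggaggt

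Genes that serve P450 enzymes were described from a list of 46, of which 42 were tested. Of these, 17 fell and 4 rose in Acot12+/+ and 18 fell and 7 rose in Acot12-/-, with medians of -0.31 and -0.55, beside background shares of 23.8% and 27.0% lower. With equal totals the Acot12+/+ count was 8 lower and 16 higher, where 8435 of all 13271 genes tested were called and their median log2 fold change was 0.65. Among the 10 electron donors and related proteins, 5 fell in Acot12+/+ and 6 in Acot12-/-. Por, the donor of all microsomal P450 enzymes, was 2.29-fold and 3.07-fold lower in UUO (88.2 to 38.6 and 133 to 43.2 FPKM, adjusted p = 0.0204 and 0.00595), and Cyb5a, cytochrome b5, went from 2159 to 446 and from 2060 to 476 FPKM (adjusted p = 7.84e-05 and 7.16e-05). The mitochondrial donor Fdx1 went from 111 to 37.1 and from 125 to 41.6 FPKM, whereas its reductase Fdxr was 5.08 to 6.86 FPKM in all group means and was not called.

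Of 10 genes of heme synthesis and breakdown, 6 fell in each genotype. Among the late steps, Ppox was not called, while Cpox went from 35.6 to 15.7 and from 42.7 to 14.9 FPKM and ferrochelatase (Fech), which inserts the iron, went from 47.1 to 19.5 and from 62.7 to 20.6 FPKM. Alas1, the rate-limiting first enzyme, was called lower in Acot12-/- (77.5 to 32.9 FPKM, adjusted p = 0.00189) and not in Acot12+/+ (47.7 to 33.3 FPKM, adjusted p = 0.145), and the difference between these changes was not called (interaction -0.73 ± 0.36, adjusted p = 0.533, limma). Of 13 regulators, 4 fell in both genotypes, and 7 in Acot12+/+ and 6 in Acot12-/- were not called. Over all genes tested 23.8% and 27.0% were called lower, so 13 genes are too few to tell the regulators from the rest. Among the 4 were Hnf4a, a driver of tubule and liver genes (158 to 70.3 and 196 to 64.1 FPKM), the growth hormone receptor Ghr (466 to 77.3 and 415 to 82.4 FPKM) and the estrogen receptor Esr1 (4.81 to 1.55 and 5.15 to 1.71 FPKM). The xenobiotic receptor Nr1i2 (PXR) rose, from 1.31 to 3.56 and from 2.64 to 4.18 FPKM, and so did Cebpb. The soluble epoxide hydrolase Ephx2, which degrades the epoxides made by Cyp2c and Cyp2j enzymes, was 305 and 340 FPKM in CL and 81.0 and 87.2 FPKM in UUO, and Cyp51, the lanosterol demethylase whose symbol the choice of members missed, was 114 and 145 FPKM in CL and 17.0 and 20.5 FPKM in UUO.

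Between genotypes in CL kidneys 3 members passed the test, 2 higher and 1 lower in Acot12-/-, where 4.35% of all genes tested were called (1.09% higher, 3.26% lower). These CL libraries are the ones that the UUO comparisons were made against. Cyp2d12 was 3.43, 3.55 and 3.01 FPKM in Acot12+/+ CL and 15.1, 12.0 and 14.9 FPKM in Acot12-/- CL, and Cyp2d26 was 16.7, 27.9 and 39.9 against 138, 104 and 117 FPKM. The libraries did not overlap, and the means were 4.20-fold and 4.25-fold higher in Acot12-/- (log2 fold change 1.79 ± 0.25, adjusted p = 0.00576, and 2.12 ± 0.50, adjusted p = 0.0354, limma). Cyp2d9, of the same region, was 2.16-fold higher without overlap but was not called (adjusted p = 0.310), and Cyp2d22 overlapped (1.18-fold, adjusted p = 0.600). Cyp1b1 was lower, at 7.06, 7.49 and 7.75 against 1.27, 4.97 and 2.09 FPKM (log2 fold change -1.28 ± 0.28, adjusted p = 0.0259). Fibroblast marker sums in the same Acot12-/- CL replicates were 36.0, 98.7 and 60.5 FPKM, in the order of their Cyp1b1 levels. In Acot12+/+ CL the sums were 160, 146 and 127 FPKM, in the reverse of the order of Cyp1b1. Of the 7 markers, 2 were called lower in Acot12-/- CL, and their part was not tested.

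Of the 38 other tested genes within 1 megabase of the Cyp2d members, 1 was called between genotypes in CL kidneys, and 0 were called higher. Over all genes tested 4.35% were called and 1.09% called higher, so 38 genes are too few to tell this neighbourhood from the rest. The proximal tubule marker sum was also higher in every Acot12-/- CL library than in every Acot12+/+ CL library, at 2929 to 4395 against 1673 to 2447 FPKM. Of its 10 genes, 2 were higher in this way and 0 were called, with all 10 log2 differences positive (median 0.71). The part of these markers in the Cyp2d difference was not tested. Cyp2c44, Cyp2e1 and Cyp2a5 were likewise higher without overlap (2.21-fold, 1.56-fold and 1.75-fold) and were not called (adjusted p = 0.0736, 0.727 and 0.486). In all, 20.7% of members were higher in every Acot12-/- CL library than in every Acot12+/+ CL library, beside 8.58% of all genes tested, and 3.45% were lower, beside 9.71%. Cyp4b1 (log2 difference 0.05 ± 0.39), Cyp2j5 (0.28 ± 0.24) and Cyp7b1 (0.36 ± 0.69) overlapped between genotypes.

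The CL calls were not stable to the choice of samples. Cyp2d12 was called whichever library was left out, whereas Cyp1b1 and Cyp2d26 lost their calls without any of the Acot12+/+ CL libraries or without Acot12-/- CL replicate 1 or 3 (adjusted p 0.0584 to 0.0818 and 0.0553 to 0.145), and Cyp2d26 also without Acot12+/+ UUO replicate 1 or 2 or without the level filter (adjusted p 0.0557 to 0.0644). When only the CL groups were fitted, 0 members were called, with adjusted p = 0.0580 for Cyp2d12, 0.0652 for Cyp2d26 and 0.157 for Cyp1b1, and 1 gene of all tested was called.

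**Figure D4:**
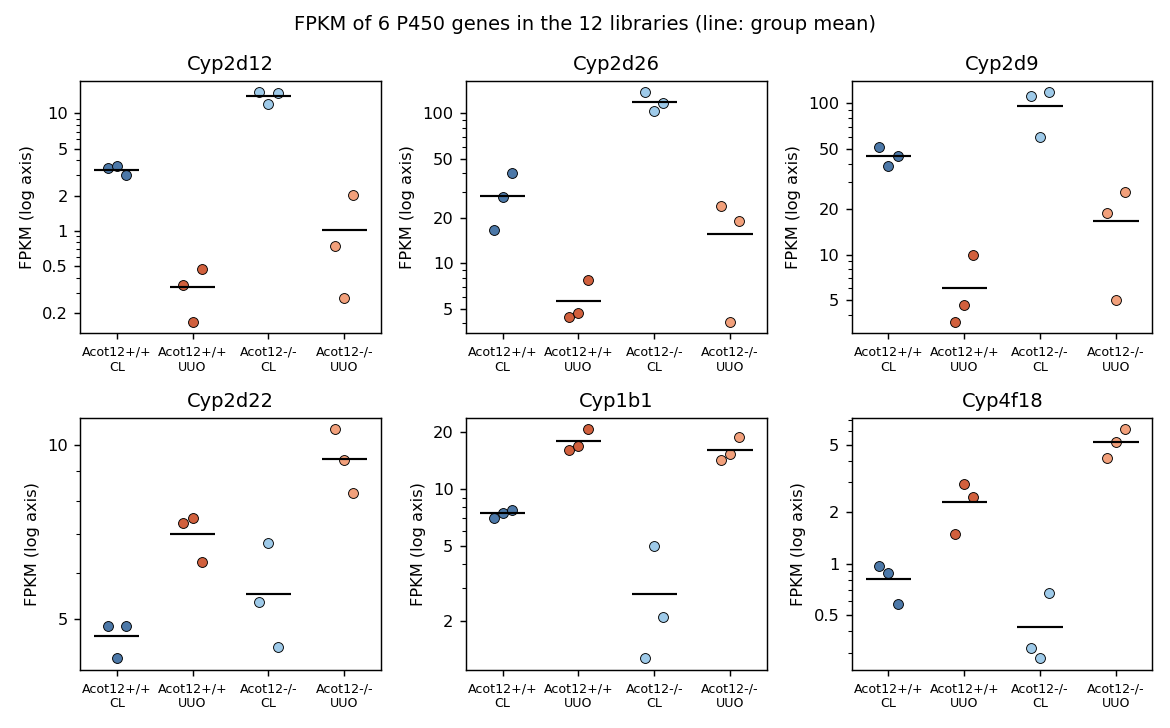
FPKM of 6 members (log axis) in each library of the 4 groups, with a line at the group mean. Cyp2d12 and Cyp2d26 are about 4 times higher in Acot12-/- CL than in Acot12+/+ CL, Cyp1b1 is lower there, and Cyp4f18 is higher in every Acot12-/- UUO library (4.20 to 6.17) than in every Acot12+/+ UUO library (1.49 to 2.93), a difference that was not called.

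In UUO kidneys 0 members and 0 of all genes tested were called between genotypes by limma, while 4 members and 314 genes had an unadjusted p under 0.05. The 4 were Cyp4f18 (5.18 ± 0.985 in Acot12-/- against 2.29 ± 0.734 FPKM in Acot12+/+, adjusted p = 0.779), Cyp2j13 (19.3 ± 4.07 against 27.7 ± 2.39 FPKM), Cyp2d22 (9.44 ± 1.21 against 7.02 ± 0.660 FPKM) and Cyp2d9 (16.7 ± 10.7 against 6.05 ± 3.38 FPKM; SD, n = 3), the last 3 with adjusted p of 1.00. Cyp4f18 and Cyp2d22 were higher, and Cyp2j13 lower, in every Acot12-/- UUO library than in every Acot12+/+ UUO library, and Cyp2d9 overlapped. Over all members 2 were higher and 3 lower in this way, beside 5.49% and 6.47% of all genes tested. The abundant members differed by less than their spread, with log2 differences of -0.22 ± 0.39 for Cyp4b1 and -0.09 ± 0.67 for Cyp2e1.

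Whether the change with obstruction differed between genotypes was tested as an interaction, which called 0 members and 14 genes of all tested (0.105%), while 3 members and 1388 genes had an unadjusted p under 0.05. Cyp4f18 came closest: its change on log2(FPKM + 1) was 1.28 ± 0.27 larger in Acot12-/- (adjusted p = 0.0937, limma), at 2.12 against 0.84 in Acot12+/+. Its ratios of means, 12.3-fold and 2.83-fold, are another measure and rest on CL means of 0.422 and 0.808 FPKM. Cyp4f18 passed the level filter in UUO libraries alone, so its direction between kidneys was set by the filter. With the replicate number as a block, which pairs the UUO and CL kidneys of a number, Cyp4f18 was called (adjusted p = 0.0334, limma). So it was without Acot12-/- CL replicate 2 (adjusted p = 0.0369) or 3 (adjusted p = 0.0419). In these fits the interaction called 186, 888 and 148 genes of all tested, in that order, in place of 14. On log2(FPKM + 1), Cyp2d12 fell by more in Acot12-/- (difference -1.28 ± 0.35, adjusted p = 0.163, limma). Cyp1b1 rose by more (1.14 ± 0.39, adjusted p = 0.283), and was called without Acot12-/- CL replicate 2 (1.53, adjusted p = 0.0104). The UUO levels of Cyp2d12, 0.170 to 2.03 FPKM, lie near the 1 added before the log, which narrows its fall, and more so in Acot12+/+. In group means Cyp2d12 fell 10.05-fold in Acot12+/+ and 13.8-fold in Acot12-/-. For Cyp2d12 and Cyp1b1 the genotypes differed in the CL and not in the UUO kidneys by the threshold, and each of these differences shares its CL libraries with the interaction. The UUO mean of Cyp2d12 was still 3.065-fold higher in Acot12-/-, with overlapping libraries.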

How the data were processed

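Kidney cortex RNA of 12 mouse libraries was made into directional libraries and sequenced by the authors, whose provider trimmed, mapped and normalised the reads. The deposited values are FPKM per gene symbol, a unit read from their step size. The submitters' processing notes name mm10 and edgeR without a role; the aligner and whether strand was used in counting are not given in the sources used here. Groups came from the labels.

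Values at or above 1 FPKM in at least 3 libraries (13271 genes) were analysed as log2(FPKM + 1) with limma 3.58.1 (R 4.3.3), all 4 groups in 1 model with a variance trend, and Benjamini-Hochberg adjustment at 0.05. The labels do not say which libraries share a mouse, and p-values measure the spread between these samples. Same-numbered CL and UUO libraries deviated together in all 6 pairs (correlations 0.152 to 0.319), so a replicate block was fitted as an alternative. The scripts were tested on simulated data. Positions are GENCODE GRCm38. The members, partner genes and markers were chosen with earlier results of these data known; members past a threshold or among the most different per comparison were named. The values of 1 regulator are not reported here.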

Additional observations from a re-analysis of the deposited data

Results flagged for a closer look

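The change of Cyp4f18 with obstruction differed between genotypes in the fit with the replicate number as a block: the log2 change was 1.28 larger in Acot12-/- (adjusted p = 0.0334, limma). Without the block the same difference had an adjusted p of 0.0937, and over the alternatives the adjusted p ranged from 0.0334 to 0.267. Of the 13271 genes tested, the interaction called 186 with the block and 14 without it. Every Acot12-/- UUO library (4.20 to 6.17 FPKM) lay above every Acot12+/+ UUO library (1.49 to 2.93 FPKM), and the CL libraries overlapped at 0.278 to 0.964 FPKM. Cyp4f18 passed the level filter in UUO libraries alone, so its direction between kidneys was set by the filter.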

How the results depend on the processing

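Every member that passed the test in both genotypes kept its direction in all alternatives run, which for Cyp4f14, Cyp2u1 and Cyp4f18 the level filter had set. In Acot12+/+, Cyp2d12 also passed that filter in CL libraries alone. Between genotypes in CL kidneys 3 members were called, 0 when only the compared groups were fitted and 1 to 4 when 1 library was left out. It was 1 without any single Acot12+/+ CL library or Acot12-/- CL replicate 1 or 3. It was 4 without Acot12-/- CL replicate 2 or Acot12-/- UUO replicate 2. Of all 13271 genes tested, 577 were called in the main fit. Without Acot12-/- CL replicate 2 it was 2917, without Acot12-/- UUO replicate 2 it was 525, and in the fits with 1 member it was 183 to 676. The replicate block pairs the UUO and CL libraries of a number within a genotype. Under it the interaction called 1 member, Cyp4f18, in place of 0, and 186 of all 13271 genes tested in place of 14. The Acot12+/+ comparison of UUO with CL called 23 members in place of 21 (Cyp20a1 and Cyp2j6 added). Over all genes tested it called 7022 in place of 6279. No other member call changed. Leaving out 1 library gave 0 to 2 members for the interaction, 2 without Acot12-/- CL replicate 2 and 1 without Acot12-/- CL replicate 3. In these fits the interaction called 888 and 148 of all genes tested. Requiring a 2-fold change as well left 15 and 16 members in the UUO comparisons and 15 of 25 partner genes in Acot12-/-.

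The values that changed sign were not called in the comparison in which they did so, although Cyp27a1 and Cyp2j6 were called lower in Acot12-/-. With equal library totals the log2 change turned to 0.220 for Cyp27a1, 0.195 for Cyp2j6 and 0.337 for Cyp2j9 in Acot12+/+, and to 0.356 for Cyp2j9, 0.397 for Cyp39a1 and 0.401 for Cyp4f13 in Acot12-/-; with median-ratio size factors Cyp20a1 turned to -0.010 in Acot12-/-. Leaving out 1 library gave ranges in Acot12+/+ of -0.089 to 0.266 for Cyp1a1, -0.045 to 0.218 for Cyp2r1, -0.057 to 0.204 for Cyp39a1 and -0.007 to 0.127 for Cyp4f13. In Acot12-/- they were -0.112 to 0.175 for Cyp20a1, -0.236 to 0.082 for Cyp2j9, -0.158 to 0.049 for Cyp39a1 and -0.440 to 0.124 for Cyp4f13. The cause was not tested. Of 1508 values for single members under the alternatives, 1410 kept direction and side of the threshold, 59 lost a call, 18 gained a call and 21 changed sign. The alternative without genes at 0 beside 10 FPKM and the count over members at 1 FPKM in both kidneys were chosen after seeing the data. At these depths, levels near 0.1 FPKM rest on few fragments, and 3 libraries a group limit what the genotype comparisons can call.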
